A study of Mus musculus with 12 samples.

Results

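The mitosis genes described here are Birc5, Ube2s, Ccnb1, Ccna2, Cdc20, Plk1, Bub1, Top2a, Lmnb1 and E2f8. Most act in the entry into mitosis, the separation of chromosomes and the remaking of the nucleus, while E2f8 encodes a repressor of cell cycle genes. The members were chosen by name, as the probe sets annotated to exactly 1 of these 10 symbols. Of the 10 genes, 9 had such a probe set, among 8251 genes with one on the array, and they were measured by 14 probe sets. Ccnb1, the mitotic cyclin B1, is not analysed here. Where a gene had several probe sets, the one with the highest mean leads and the others are given beside it.

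A cell enters mitosis when cyclin-dependent kinases and their helper kinases become active, attaches its chromosomes to a spindle under the watch of a checkpoint, and leaves mitosis when the anaphase-promoting complex marks cyclins and securin for destruction. Many of these genes are transcribed mainly in late S, G2 and M phase, so that their RNA is widely used as a sign of dividing cells. In the embryonic kidney, nephron progenitors, forming nephrons and the tips of the collecting duct tree all contain dividing cells.

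The 12 arrays (Affymetrix MG_U74Av2) held RNA of kidney structures microdissected from wild-type Swiss Webster mouse embryos at E14.5 (Theiler stage 22, sex unknown), in 4 groups of 3 arrays. Single S-shaped bodies (replicates 3, 4 and 5) were amplified from 1 structure each, pooled S-shaped bodies (replicates 1, 2 and 3) and renal vesicles (replicates 2, 3 and 4) from pools of 20 structures, and collecting duct (replicates 1, 2 and 3), the reference of the study, from 1 unpooled sample each. The renal vesicle is the first epithelial stage of the nephron and the S-shaped body a later one, while the collecting duct derives from the ureteric bud. All RNA went through 2 rounds of T7 amplification. The labels count each sample as a biological replicate without saying which embryos it came from, so a p-value here covers the spread among the arrays of a group and no more.

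Array medians on the deposited scale differed by up to 17.8-fold, so levels are given as log2 of quantile normalized intensity plus a pseudocount of 7.22. Probe sets above background made up 48.3% to 54.4% on single S-shaped body arrays, 55.1% to 58.3% on pooled S-shaped body arrays, 56.7% to 59.7% on renal vesicle arrays and 54.9% to 57.9% on collecting duct arrays. The tissue labels were checked against markers. Of 6 nephron markers, 2, 4, 6 and 3 were above background on all arrays of single S-shaped bodies, pooled S-shaped bodies, renal vesicles and collecting duct, with Wnt4 above it on no S-shaped body array. Of 7 markers of ureteric bud and collecting duct, 2, 2, 2 and 6 were above background on all arrays in the same order, and Ret was above it on no array of any group. The 3′ to middle ratio of the beta-actin control was 7.55 to 10.38 in single S-shaped bodies, 3.22 to 3.92 in pooled S-shaped bodies, 7.89 to 9.02 in renal vesicles and 6.29 to 10.45 in collecting duct. Its 3′ to 5′ ratio was 75.8 to 91.4, 31.6 to 46.6, 36.1 to 43.3 and 27.7 to 89.4 in the same order, and that of the Gapdh control was 9.37 to 13.07, 21.2 to 28.3, 8.23 to 14.53 and 8.97 to 11.97.

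All measured mitosis genes but Cdc20 had their highest mean in renal vesicles after quantile normalization. Of the 9 measured genes, 8 were lower in pooled S-shaped bodies than in renal vesicles, and 8 were higher in renal vesicles than in collecting duct. Cdc20 departed from the others between the nephron stages, with closely similar means in pooled S-shaped bodies and renal vesicles, and Birc5 was the gene that was not called between renal vesicles and collecting duct. Between pooled S-shaped bodies and collecting duct the genes divided, with 5 lower, 2 higher and 2 not called in S-shaped bodies. These directions hold after quantile normalization; on the deposited scale, where all arrays of a group are shifted together, 6 of the 9 were called lower in renal vesicles than in collecting duct and 1 higher, while the median of all tested probe sets was -1.39 on the log2 scale and 9 of 9 lay above it. In bulk RNA, fewer cells expressing a gene and less of its RNA per cell cannot be told apart.

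**Figure D1:**
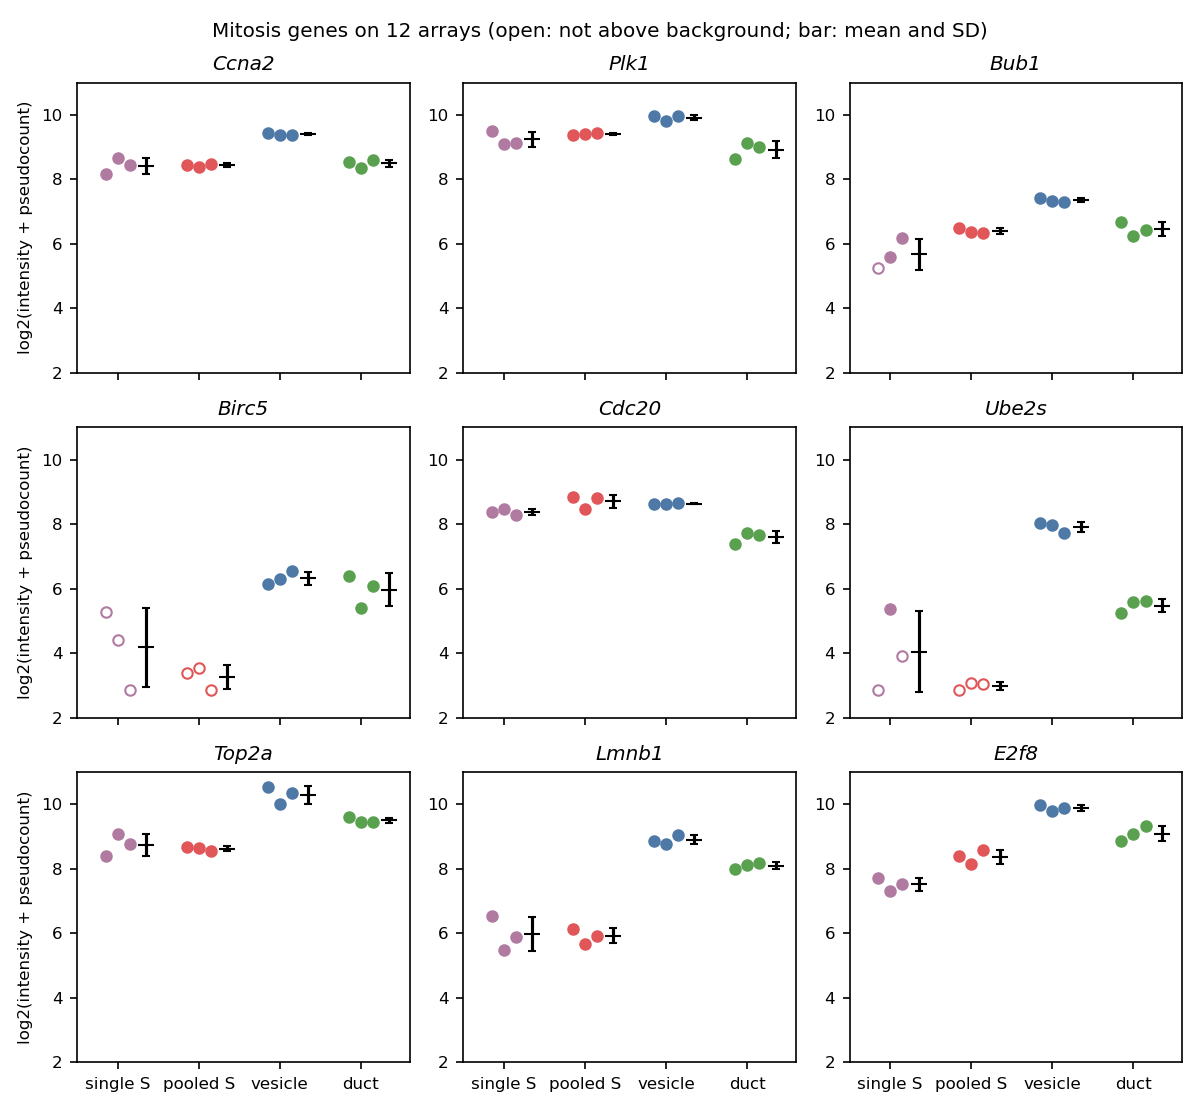
Level of each of 9 mitosis genes (log2 of quantile normalized intensity plus pseudocount) on each of 12 arrays, in single S-shaped bodies, pooled S-shaped bodies, renal vesicles and collecting duct. Points are arrays, open points are not above background, and bars are group means with SD. Renal vesicle arrays lie above all pooled S-shaped body arrays for 8 genes, and Cdc20 is the gene whose arrays overlap. Levels depend on bringing the arrays to 1 scale; on the deposited scale most genes are lower in renal vesicles than in collecting duct.

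The tests were made with limma, fitted over 9316 probe sets, and a gene was called where its Benjamini-Hochberg adjusted p was under 0.05. Between pooled S-shaped bodies and renal vesicles, 8 of 9 genes were called lower and 0 higher, where 19.2% of all tested probe sets were called lower and 17.5% higher (36.7% in all). For these 8 genes every S-shaped body array lay under every renal vesicle array, beside 24.2% lower, 23.2% higher and 47.4% in all among tested probe sets. The median log2 change of the 9 genes was -1.52, also with the 2 genes under background at their bound, beside -0.03 over all tested probe sets. These 2, Birc5 and Ube2s, were under background on every pooled S-shaped body array and are counted as lower here and against collecting duct. Their mean over the arrays of the fit, by which dim probe sets were left out, was raised by the other groups. Renal vesicles against collecting duct had 8 of 9 called higher and 0 lower, where 12.3% of all tested probe sets were called higher and 11.6% lower (23.9% in all). Arrays did not overlap for 8 genes, all higher, beside 19.2% higher, 20.3% lower and 39.5% in all. Their median log2 change was 0.90, beside -0.02 over all tested probe sets. Set against collecting duct, pooled S-shaped bodies had 2 genes called higher and 5 lower, where 18.2% of all tested probe sets were called higher and 20.0% lower (38.2% in all). Arrays did not overlap for 2 genes in the higher and 5 in the lower direction, beside 24.2% higher, 28.0% lower and 52.2% in all, and the median was -0.71 beside -0.07. These 3 comparisons share their samples pairwise, so their values for a gene are not independent of each other. On the deposited scale, 5 of the 9 were called lower in pooled S-shaped bodies than in renal vesicles and 2 higher, with 8 of 9 below the median of all tested probe sets, which was 0.94 there. The scale also moves the split of all called probe sets: 93.9% were higher in pooled S-shaped bodies than in renal vesicles as deposited and 47.7% after quantile normalization, and 3.23% were higher in renal vesicles than in collecting duct as deposited and 51.4% after it. For pooled S-shaped bodies against collecting duct these shares were 24.7% and 47.7%.

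**Figure D2:**
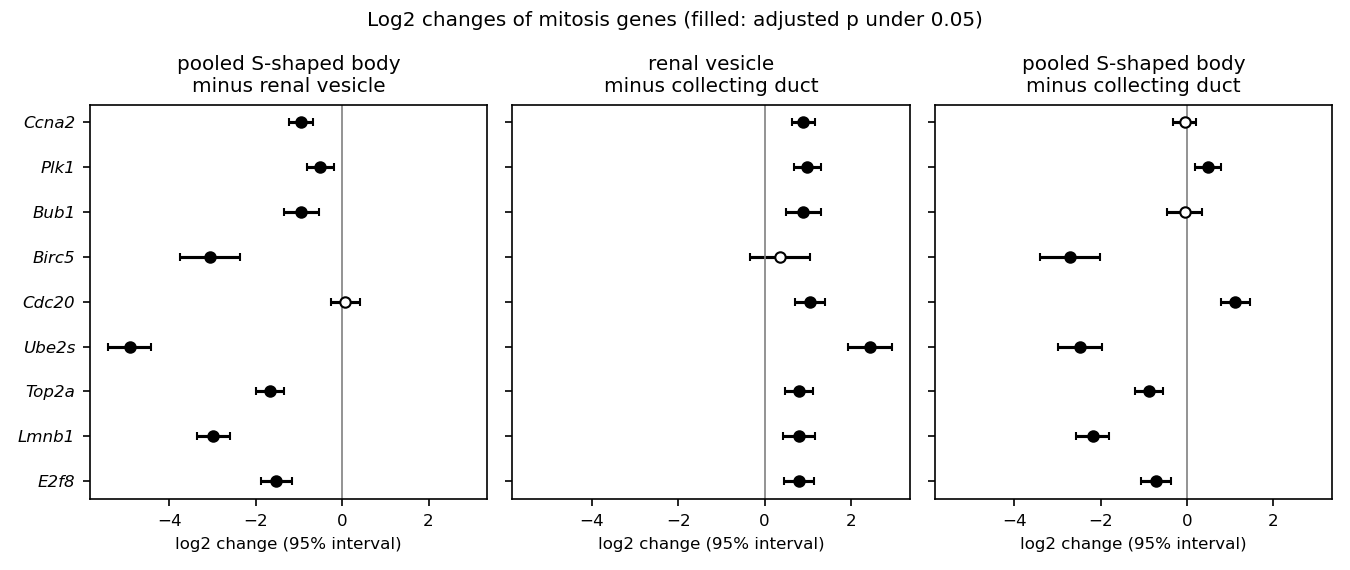
Log2 change of each mitosis gene for the pooled S-shaped body minus renal vesicle, renal vesicle minus collecting duct and pooled S-shaped body minus collecting duct comparisons, with 95% intervals from the limma fit on quantile normalized arrays. Filled points passed an adjusted p under 0.05: 8, 8 and 7 of the 9 genes. Birc5 and Ube2s are drawn at their measured means, below background in S-shaped bodies. On the deposited scale, where arrays are not brought to a common level, most of the changes against collecting duct in the middle panel have the opposite sign.

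Ccna2 encodes cyclin A2, which drives S phase and the entry into mitosis. Its level was 8.45, 8.39 and 8.49 on the pooled S-shaped body arrays, 9.43, 9.38 and 9.38 on the renal vesicle arrays, and 8.54, 8.36 and 8.58 on the collecting duct arrays. Renal vesicles stood above both other groups on every array, and S-shaped bodies and collecting duct overlapped. Ccna2 was lower in pooled S-shaped bodies than in renal vesicles (log2 change -0.95 ± 0.12, SE, limma adjusted p = 0.000173) and higher in renal vesicles than in collecting duct (0.90 ± 0.12, adjusted p = 0.000364). Between pooled S-shaped bodies and collecting duct the log2 change was -0.05, with a 95% interval of -0.32 to 0.22 (adjusted p = 0.769).

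Plk1 is the polo-like kinase that acts from mitotic entry to cytokinesis. Its leading probe set was at 9.37, 9.41 and 9.44 on the pooled S-shaped body arrays, 9.95, 9.82 and 9.95 in renal vesicles, and 8.63, 9.13 and 9.00 in collecting duct, so that the 3 groups did not overlap and S-shaped bodies lay between the others. The log2 change was -0.50 ± 0.14 between pooled S-shaped bodies and renal vesicles (SE, limma adjusted p = 0.0157), 0.99 ± 0.14 between renal vesicles and collecting duct (0.000498) and 0.49 ± 0.14 between pooled S-shaped bodies and collecting duct (0.0180). Without pooled S-shaped body replicate 1 the difference from renal vesicles had an adjusted p of 0.0503, and without the trend in the fit it was 0.0502. The suffix of this probe set, 161292_f_at, marks a probe set that can also detect related sequences. The other Plk1 probe sets, 101350_g_at and 93099_f_at, were at or under background on part of the S-shaped body and collecting duct arrays, and both had their highest mean in renal vesicles (6.51 and 6.27). With the mean of the 3 probe sets the difference between pooled S-shaped bodies and collecting duct did not pass. It was also lost without pooled S-shaped body replicate 3 or without collecting duct replicate 1. The same call was lost without the trend (limma adjusted p = 0.0562) and on the deposited scale (log2 change 0.040, adjusted p = 0.86). For this difference 101350_g_at had the opposite sign (-0.29 ± 0.63, SE, adjusted p = 0.754). In turn 93099_f_at was called higher in S-shaped bodies (1.53 ± 0.50, adjusted p = 0.0335), with overlapping arrays.

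Bub1 encodes a kinase of the spindle assembly checkpoint. Its leading probe set was at 6.50, 6.35 and 6.34 on the pooled S-shaped body arrays, 7.41, 7.34 and 7.28 in renal vesicles, and 6.68, 6.25 and 6.41 in collecting duct. As with Ccna2, renal vesicles stood above both other groups and these overlapped. Bub1 was lower in pooled S-shaped bodies than in renal vesicles (log2 change -0.95 ± 0.18, SE, limma adjusted p = 0.00220) and higher in renal vesicles than in collecting duct (0.90 ± 0.18, adjusted p = 0.00500). Another Bub1 probe set, 97095_at, changed the same ways and by more (-2.49 ± 0.34 and 2.13 ± 0.34), while 162264_s_at was above background on 0 of 12 arrays.

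Birc5 encodes survivin, a subunit of the chromosomal passenger complex that corrects spindle attachments and guides cytokinesis. It was under background on all 3 pooled S-shaped body arrays, at 3.38, 3.55 and 2.85, against 6.13, 6.29 and 6.53 in renal vesicles and 6.40, 5.40 and 6.08 in collecting duct. Its arrays thus separated S-shaped bodies from the other groups, which overlapped. Birc5 was at least 3.14-fold lower in pooled S-shaped bodies than in renal vesicles (limma adjusted p = 4.54e-05) and at least 2.45-fold lower than in collecting duct (adjusted p = 6.27e-05). Here and for other folds given as bounds, the p-value belongs to the fitted log2 change and not to the bound. Between renal vesicles and collecting duct the log2 change was 0.36, with a 95% interval of -0.34 to 1.05 (adjusted p = 0.452).

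Cdc20 and Ube2s work on the same complex. Cdc20 is the coactivator that brings the anaphase-promoting complex its substrates in mitosis, and Ube2s is the E2 enzyme that lengthens the ubiquitin chains the complex builds. Cdc20 was at 8.84, 8.48 and 8.81 on the pooled S-shaped body arrays, 8.62, 8.62 and 8.66 in renal vesicles, and 7.38, 7.73 and 7.66 in collecting duct. Both nephron stages stood above collecting duct on every array and overlapped with each other. The log2 change was 1.12 ± 0.15 between pooled S-shaped bodies and collecting duct (SE, limma adjusted p = 0.000199) and 1.05 ± 0.15 between renal vesicles and collecting duct (0.000659). Between pooled S-shaped bodies and renal vesicles it was 0.07, with a 95% interval of -0.27 to 0.41 (adjusted p = 0.753). With scaling to the 75th percentile this value was -0.098, and on the deposited scale it was 1.07 and Cdc20 was called higher in pooled S-shaped bodies. Between renal vesicles and collecting duct the change of Cdc20 on the deposited scale was -0.40.

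Ube2s behaved otherwise. It was under background on all 3 pooled S-shaped body arrays, at 2.85, 3.08 and 3.05, against 8.02, 7.98 and 7.73 in renal vesicles and 5.23, 5.59 and 5.60 in collecting duct. The 3 groups did not overlap, with collecting duct between the others. Ube2s was at least 9.47-fold lower in pooled S-shaped bodies than in renal vesicles (limma adjusted p = 2.19e-06) and at least 1.75-fold lower than in collecting duct (1.20e-05), and it was 5.41-fold higher in renal vesicles than in collecting duct (log2 change 2.43 ± 0.23, SE, adjusted p = 2.26e-05). On the deposited scale Ube2s was the gene that remained called higher in renal vesicles than in collecting duct, at 141, 181 and 112 intensity units in renal vesicles against 65.2, 67.0 and 69.3 in collecting duct.

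Top2a encodes topoisomerase II alpha, which untangles sister chromatids. It was at 8.68, 8.65 and 8.54 on the pooled S-shaped body arrays, 10.54, 9.997 and 10.35 in renal vesicles, and 9.61, 9.46 and 9.45 in collecting duct. The groups did not overlap, and the log2 change was -1.67 ± 0.15 between pooled S-shaped bodies and renal vesicles (SE, limma adjusted p = 1.72e-05), 0.79 ± 0.15 between renal vesicles and collecting duct (0.00263) and -0.88 ± 0.15 between pooled S-shaped bodies and collecting duct (0.000701). Lmnb1 encodes lamin B1, a filament of the nuclear lamina that is taken apart when the nuclear envelope breaks down. It was at 6.15, 5.68 and 5.93 on the pooled S-shaped body arrays, 8.87, 8.79 and 9.05 in renal vesicles, and 7.98, 8.13 and 8.20 in collecting duct, again with no overlap. Its log2 change of -2.98 ± 0.17 between pooled S-shaped bodies and renal vesicles (adjusted p = 2.29e-06) was, among the genes above background on every array, the one with the largest size in that comparison. Lmnb1 was also lower in pooled S-shaped bodies than in collecting duct (-2.18 ± 0.17, adjusted p = 3.88e-06) and higher in renal vesicles than in collecting duct (0.80 ± 0.17, adjusted p = 0.00641).

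E2f8 encodes an atypical E2F factor that represses cell cycle genes late in S phase and in G2. Its leading probe set, 103203_f_at, was at 8.40, 8.14 and 8.58 on the pooled S-shaped body arrays, 9.99, 9.80 and 9.89 in renal vesicles, and 8.87, 9.07 and 9.33 in collecting duct. The groups did not overlap and stood in the same order as for Ube2s, Top2a and Lmnb1, with renal vesicles highest and pooled S-shaped bodies lowest. The log2 change was -1.52 ± 0.16 between pooled S-shaped bodies and renal vesicles (SE, limma adjusted p = 5.03e-05), 0.80 ± 0.16 between renal vesicles and collecting duct (0.00409) and -0.71 ± 0.16 between pooled S-shaped bodies and collecting duct (0.00453). The other E2f8 probe set, 103204_r_at, had the same signs, with changes of -2.82, 1.39 and -1.43. By its suffix, 103203_f_at can also detect related sequences. The suffix of 103204_r_at is a different one, and what else that probe set detects was not tested.

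**Figure D3:**
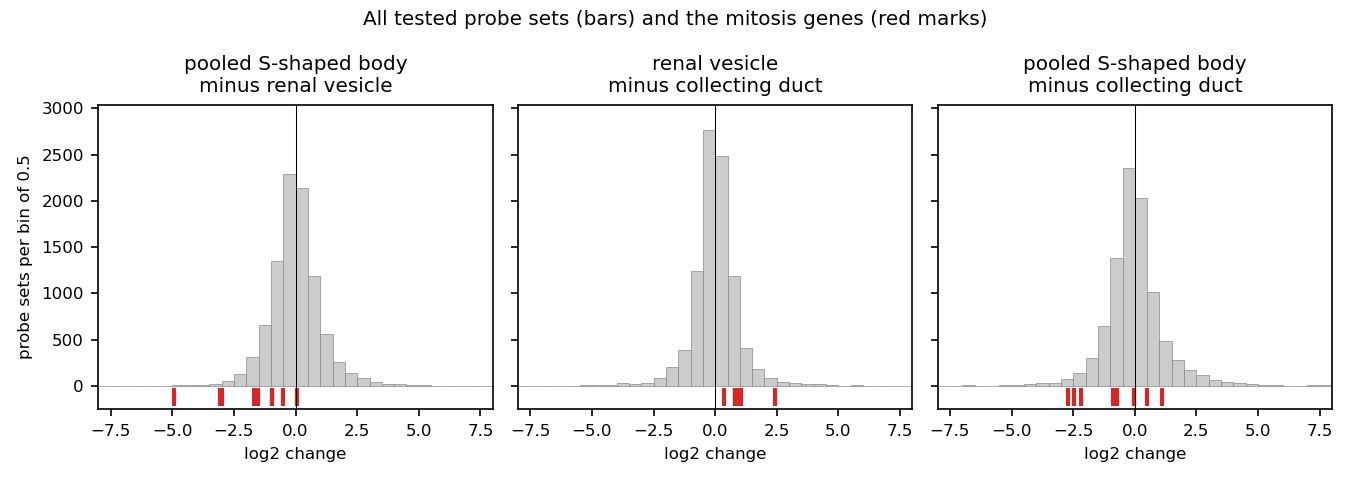
Distribution of log2 changes over 9316 tested probe sets (grey bars, bins of 0.5) with the 9 mitosis genes marked in red, in 3 panels: pooled S-shaped body minus renal vesicle, renal vesicle minus collecting duct, and pooled S-shaped body minus collecting duct, after quantile normalization. The red marks lie mostly left of 0 in the left panel, right of 0 in the middle one, where the signs turn on the deposited scale for 8 of the 9, and on both sides in the right one.

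Single S-shaped bodies were compared with the pools of the same stage to see how the genes fared in RNA from 1 structure. No gene of the 9 was called, where limma called 0.397% of all tested probe sets (0.247% higher and 0.150% lower), and 1 of the 9 had an unadjusted p under 0.05. In a fit over all 12 arrays 1 gene, E2f8, was called, beside 424 of all tested probe sets. E2f8 was at 7.72, 7.31 and 7.52 in single S-shaped bodies, below the 3 pooled arrays (log2 change -0.86 ± 0.20, SE, adjusted p = 0.101), but its other probe set changed by -0.06 ± 0.28. Cdc20 (8.39, 8.47 and 8.28) and Bub1 (5.24, 5.60 and 6.19) also lay below all pooled arrays without passing the test. Arrays did not overlap in the lower direction for 3 of the 9 genes, beside 13.4% of all tested probe sets (11.6% higher and 24.9% in all). Birc5 (5.27, 4.40 and 2.85) was under background on all 3 single arrays, and Ube2s (2.85, 5.36 and 3.92) was above it on 1, replicate 4. For Birc5 and Ube2s, near or under background, the SD was 1.23 and 1.26 on single arrays, against 0.361 and 0.124 on pooled arrays. For Cdc20 it was 0.0920 on single and 0.198 on pooled arrays.

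Against renal vesicles, single S-shaped bodies had 8 of the 9 genes lower and 0 higher, where 14.6% of all tested probe sets were called lower and 12.5% higher (27.1% in all). Arrays did not overlap for all 9, in the lower direction, beside 23.3% lower, 21.2% higher and 44.5% in all, and the median log2 change was -1.67, or -1.55 with Birc5 at its bound. Lmnb1, at 6.55, 5.49 and 5.90 in single S-shaped bodies, changed by -2.92 ± 0.30 (SE, limma adjusted p = 0.000431) and Top2a, at 8.39, 9.07 and 8.77, by -1.55 ± 0.22 (0.00153). Cdc20 changed by -0.26, with a 95% interval of -0.66 to 0.15 (adjusted p = 0.327), although its 3 single arrays lay below the 3 renal vesicle arrays. Ccna2, at 8.16, 8.65 and 8.45, changed by -0.98 ± 0.19 (0.00593). The calls of Birc5, without renal vesicle replicate 2, 3 or 4, and of Plk1, without renal vesicle replicate 2 or 4 or single S-shaped body replicate 4 or 5, were lost. All 9 genes were called lower than in renal vesicles on the deposited scale, where 4132 of all tested probe sets were called lower and 217 higher and their median was -1.06. Against collecting duct, 3 genes were lower (Top2a, Lmnb1 and E2f8) and Cdc20 was higher (0.79 ± 0.19, adjusted p = 0.0118), where 17.9% and 16.0% of all tested probe sets were called lower and higher (33.8% in all). Arrays did not overlap for 5 genes in the lower and 1 in the higher direction, beside 26.0% lower, 22.5% higher and 48.4% in all. On the deposited scale, where the median of all tested probe sets was -2.56, all 9 were called lower than in collecting duct, Cdc20 included, which lay above that median. Of all tested probe sets, 8100 were called lower and 199 higher there. After quantile normalization and without collecting duct replicate 1, 2 of the 9 genes were called, beside 2124 of all tested probe sets. Cdc20 then had a limma adjusted p of 0.0555. Top2a was not called against collecting duct without collecting duct replicate 1, 2 or 3, each left out in turn (adjusted p up to 0.0763). Plk1 (9.50, 9.10 and 9.11 in single S-shaped bodies) did not pass against collecting duct (adjusted p = 0.241).

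The other genes of mitosis were read from a list of 40, of which 33 had a probe set and were tested in the fit of the 3 groups without single structures. In pooled S-shaped bodies against renal vesicles, 15 of the 33 were lower and 0 higher, where 19.2% of all tested probe sets were called lower and 17.5% higher, with a median log2 change of -0.47. As deposited, without normalization, 13 were called higher and 3 lower, where 5103 of all tested probe sets were called higher and 329 lower. There 28 of the 33 lay below the median of all tested probe sets. After quantile normalization the 2 with the largest change were Kifc1 and Kif11. Kifc1, a minus-end directed kinesin of the spindle, changed by -3.77 ± 0.41 (SE, limma adjusted p = 6.53e-05). By its suffix, f_at, the Kifc1 probe set can also detect related sequences. Kif11, the kinesin that pushes the spindle poles apart, changed by -1.95 ± 0.21 (adjusted p = 6.63e-05). In renal vesicles against collecting duct, 17 of the 33 were higher and 0 lower, with a median of 0.58, where 12.3% of all tested probe sets were called higher and 11.6% lower. As deposited, 22 were called lower and 0 higher, where 7033 of all tested probe sets were called lower and 235 higher. There 29 of the 33 lay above the median of all. The 17 called higher after quantile normalization were led by Tacc3, a spindle microtubule protein (1.63 ± 0.19, adjusted p = 0.000118), and Kif11 (1.49 ± 0.21, adjusted p = 0.000531). Set against collecting duct, pooled S-shaped bodies had 2 of the 33 higher and 5 lower, where 18.2% of all tested probe sets were called higher and 20.0% lower, with a median of -0.07, beside -0.07 over all. As deposited, 0 were called higher and 12 lower, where 969 of all tested probe sets were called higher and 2948 lower. After quantile normalization the higher ones were Smc2, of condensin (0.64 ± 0.18, adjusted p = 0.0145), and Cenpa, the histone of the centromere (0.63 ± 0.14, adjusted p = 0.00374). The lower ones with the largest change were Kifc1 (-2.51 ± 0.41, adjusted p = 0.000645) and Ect2, which acts in cytokinesis (-0.91 ± 0.29, adjusted p = 0.0265).

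**Figure D4:**
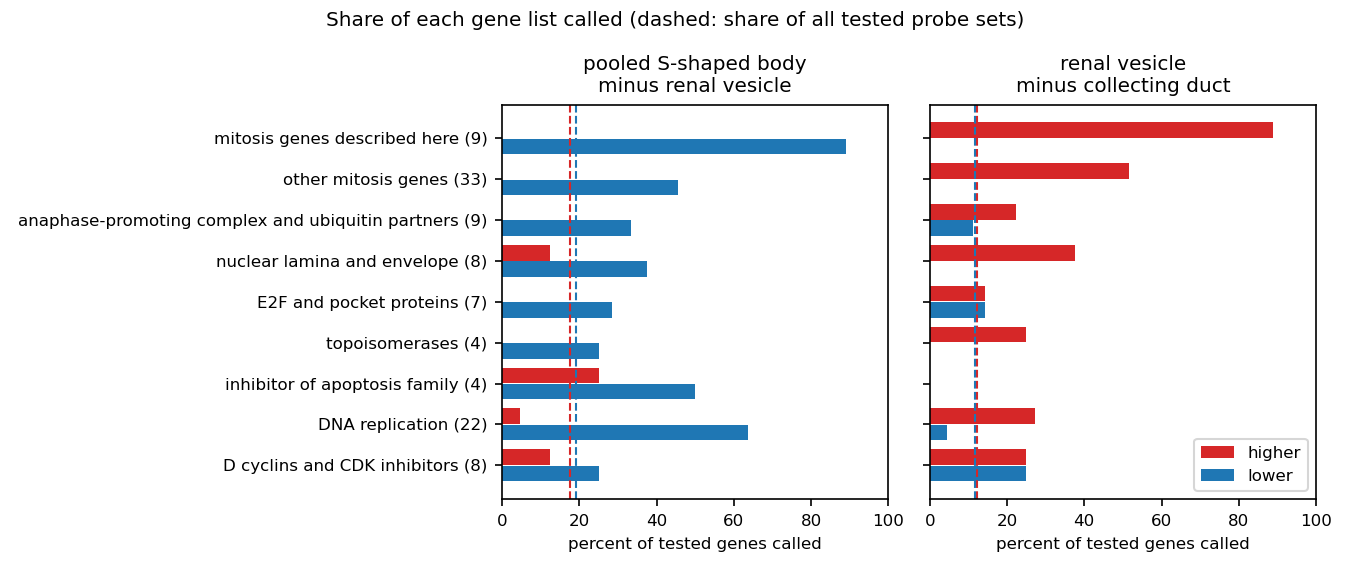
Percent of the tested genes of each list that were called higher (red) or lower (blue) for pooled S-shaped body minus renal vesicle (left) and renal vesicle minus collecting duct (right), after quantile normalization (on the deposited scale most of the lists turn direction in both panels), with the number tested in brackets and the share of all tested probe sets as dashed lines. Of the 33 other mitosis genes 15 were lower on the left and 17 higher on the right, and of 22 DNA replication genes 14 were lower on the left.

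Genes that work beside the 9 were described in the same way. Of 22 tested DNA replication genes, 14 were lower and 1 higher in pooled S-shaped bodies than in renal vesicles, with a median of -0.99, where 19.2% of all tested probe sets were called lower and 17.5% higher. Counted as deposited, 4 were lower and 4 higher, where 329 of all tested probe sets were called lower and 5103 higher. There 18 of the 22 lay below the median of all. Lig1, the ligase that joins Okazaki fragments, was under background in S-shaped bodies and at least 5.17-fold lower (limma adjusted p = 0.000278), and Mcm7, of the replicative helicase, changed by -2.17 ± 0.21 (SE, adjusted p = 2.94e-05). Mcm5, of the same helicase, was the exception (1.16 ± 0.18, adjusted p = 0.000584). The suffix of its probe set is r_at, and what else that probe set detects was not tested. In renal vesicles against collecting duct 6 of the 22 were higher and 1 lower, where 12.3% and 11.6% of all tested probe sets were called higher and lower. On the deposited scale 0 were higher and 17 lower, where 235 of all tested probe sets were called higher and 7033 lower. There 18 of the 22 lay above the median of all.

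The smaller lists are read against the same shares of all tested probe sets in pooled S-shaped bodies against renal vesicles, 19.2% lower and 17.5% higher, and nothing particular is read from lists of so few genes. For each of these 6 lists, more genes were called higher than lower on the deposited scale, where 5103 of all tested probe sets were called higher and 329 lower. Partners of Cdc20 and Ube2s in the anaphase-promoting complex had 3 lower and 0 higher of 9 tested in pooled S-shaped bodies against renal vesicles, among them the subunits Anapc5 (-0.95 ± 0.12, SE, limma adjusted p = 0.000142) and Cdc23 (-0.65 ± 0.15, adjusted p = 0.00614). Partners of Lmnb1 at the nuclear envelope had 3 lower and 1 higher of 8. Tmpo, a lamin-binding protein of the inner nuclear membrane, was lower (-1.81 ± 0.14, adjusted p = 1.00e-05), as was Lbr, the lamin B receptor (-1.68 ± 0.26, adjusted p = 0.000584). Lmna, the gene of A-type lamins, was higher (2.50 ± 0.57, adjusted p = 0.00560) and exceeded background on only 2 of the 3 arrays from renal vesicles. Relatives of Top2a had 1 lower, Top1, and 0 higher of 4 (-0.57 ± 0.13, adjusted p = 0.00596). Of 7 genes of E2F factors and their pocket protein partners, 2 were lower and 0 higher. Of 4 relatives of Birc5 in the inhibitor of apoptosis family, 2 were lower and 1 higher. Among 8 D cyclins and their kinase and inhibitors, Ccnd1, cyclin D1, was lower (-2.75 ± 0.29, adjusted p = 5.03e-05) and Cdkn1c, the kinase inhibitor p57, was higher (2.26 ± 0.49, adjusted p = 0.00413). Renal vesicle arrays spread from 9.29 to 11.99 for Cdkn1c, and pooled S-shaped body arrays lay at 12.62 to 12.99.

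Markers of endothelium, stroma and red blood cells had more summed signal in the S-shaped body groups, while few macrophage markers were above background in any group. Of 6 endothelial markers, 6 were above background on all 3 pooled S-shaped body arrays, 3 on all renal vesicle arrays and 0 on all collecting duct arrays, where none of the 6 was above it on any array. Their summed normalized intensity was 2868 to 3717 in pooled S-shaped bodies, 901 to 2483 in renal vesicles and 13.0 to 52.4 in collecting duct. Of 6 stromal markers, 6, 1 and 0 were above background on all arrays in the same order, with sums of 2041 to 2709, 120 to 693 and 9.94 to 35.7. The sums of 4 red blood cell markers were 5118 to 6611, 74.2 to 784 and 104 to 157. Their part in the changes of the mitosis genes, and that of the lower 3′ to middle beta-actin ratio and the higher 3′ to 5′ Gapdh ratio on pooled S-shaped body arrays, was not tested. In single S-shaped bodies the endothelial sums were 2973 to 4426, the stromal ones 2624 to 3942 and those of red blood cells 1132 to 4566. Sums of 5 macrophage markers were 69.5 to 111 in single and 97.7 to 127 in pooled S-shaped bodies. They were 38.7 to 72.3 in renal vesicles and 52.0 to 76.3 in collecting duct. Of these 5, 1, 2, 1 and 1 were above background on all arrays in that order.

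The 9 genes did not vary alike. Over the 12 arrays, which fall into 4 groups, Pearson's r between a gene and the mean of the other 8 was 0.96 for Top2a, 0.91 for Lmnb1 and Ube2s, 0.88 for E2f8 and Ccna2, 0.79 for Bub1, 0.75 for Birc5, 0.49 for Plk1 and -0.09 for Cdc20 (a description over arrays of shared groups, with no test). The mean was taken over centred but unscaled levels, so genes with a wide range weigh more in it. Among these are Ube2s and Birc5, which were under background on most or all S-shaped body arrays. The closest pair was Ube2s and Top2a (r = 0.97), and the most opposed was Birc5 and Cdc20 (r = -0.41). Among 8267 probe sets of other genes, the 8 genes closest to the mean profile of the 9 were Incenp, a partner of survivin in the chromosomal passenger complex (r = 0.98), the nephron inducing signal Wnt4, the transcription factor gene Myb, the translation factor subunit gene Eif3b, the centrosomal kinase gene Nek2, Sinhcaf, of a histone deacetylase complex, Nop58, of box C/D ribonucleoproteins, and Tmpo (r = 0.96). Wnt4 had a mean of 2.85 in both S-shaped body groups, the level of a value set to 0. An r over 0.9 was reached by 149 of these probe sets (1.80%).

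Promoters of the genes are shown because many mitotic genes carry a cell cycle homology region (CHR, letters TTTGAA), bound by the MuvB core of the DREAM complex, together with CCAAT boxes bound by NF-Y. The windows run from 250 bases before to 50 after the transcript start, from RefSeq on GRCm38.p6, and 7 of the 9 genes matched one. TTTGAA stood in 4 of the 7 on either strand, where 17.9% of all 32851 windows hold it. The related letters TTCGAA stood in 3 of the 7 (1.56% of all windows) and CCAAT in 5 of the 7 (37.4%). The motifs do not overlap one another in these windows. A match is a description of the letters and not of binding; the window of Birc5 holds none of the 3.

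The windows of 4 genes follow, with capitals marking the CHR letters, their variant and the CCAAT box on either strand. Cdc20 (chr4:118437294-118437593, minus strand) is shown as the gene not called between the nephron stages. Its CHR starts 18 bases before the transcript start and lies between 2 CCAAT boxes. Plk1 (chr7:122159185-122159484, plus strand), Top2a (chr11:99024140-99024439, minus strand) and Ube2s (chr7:4812291-4812590, minus strand) are shown as genes called lower in pooled S-shaped bodies than in renal vesicles by small, middle and large amounts.
Cdc20: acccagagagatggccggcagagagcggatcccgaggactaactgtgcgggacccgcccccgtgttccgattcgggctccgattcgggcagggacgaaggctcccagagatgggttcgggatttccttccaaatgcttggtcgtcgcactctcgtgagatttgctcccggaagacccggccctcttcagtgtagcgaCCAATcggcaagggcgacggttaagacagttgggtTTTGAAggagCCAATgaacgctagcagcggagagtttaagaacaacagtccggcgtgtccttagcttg
Plk1: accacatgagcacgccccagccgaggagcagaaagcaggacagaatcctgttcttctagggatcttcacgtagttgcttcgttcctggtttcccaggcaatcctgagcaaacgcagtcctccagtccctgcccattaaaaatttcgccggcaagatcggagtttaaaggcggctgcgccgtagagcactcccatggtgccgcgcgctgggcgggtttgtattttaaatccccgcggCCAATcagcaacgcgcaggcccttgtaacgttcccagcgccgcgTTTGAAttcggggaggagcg
Top2a: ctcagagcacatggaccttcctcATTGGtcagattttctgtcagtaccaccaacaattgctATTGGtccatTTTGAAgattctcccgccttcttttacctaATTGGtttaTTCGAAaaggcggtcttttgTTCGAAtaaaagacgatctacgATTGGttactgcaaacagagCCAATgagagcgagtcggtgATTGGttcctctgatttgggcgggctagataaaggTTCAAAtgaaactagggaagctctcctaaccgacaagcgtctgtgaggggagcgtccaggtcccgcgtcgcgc
Ube2s: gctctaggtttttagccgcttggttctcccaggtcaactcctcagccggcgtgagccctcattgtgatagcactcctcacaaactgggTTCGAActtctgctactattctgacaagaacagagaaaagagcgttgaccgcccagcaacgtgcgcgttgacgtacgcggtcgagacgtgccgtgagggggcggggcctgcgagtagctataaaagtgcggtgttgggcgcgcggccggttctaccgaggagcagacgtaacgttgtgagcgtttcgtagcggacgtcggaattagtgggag
The window of Top2a holds 6 CCAAT boxes, 2 matches to TTTGAA and 2 to TTCGAA. That of Ube2s holds 1 TTCGAA, 162 bases before the start, and no CCAAT box.

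**Figure D5:**
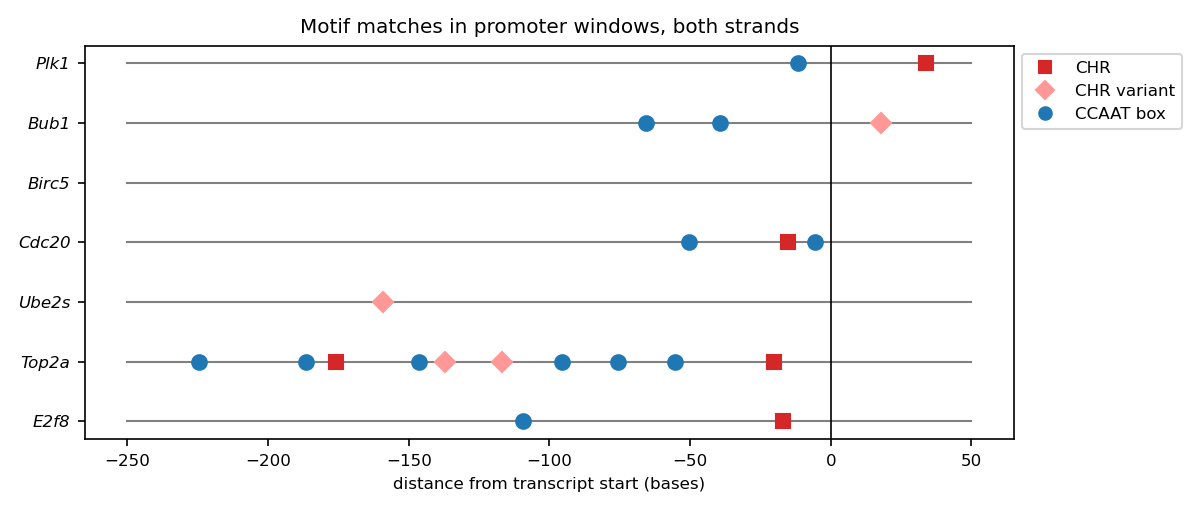
Position of motif matches in the promoter windows of 7 mitosis genes, from 250 bases before to 50 after the transcript start (bases on the x axis), on both strands. Squares are TTTGAA, diamonds TTCGAA and circles CCAAT; Top2a holds 6 circles, Cdc20 has its square 18 bases before the start, and Birc5 holds none.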

How the data were processed

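Per the labels' protocols, total RNA was isolated with TRIzol and put through 2 rounds of amplification before hybridization. The deposited table holds 1 intensity per probe set and array on a linear scale that runs below 0, over 12422 probe sets once 66 controls are set aside. The submitters' processing notes name GCOS; how probes were summarised and scaled is not given in the sources used here. The number of arrays limits the precision of each value.

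The arrays were quantile normalized, values under 0 were set to 0, and levels are log2 after adding a pseudocount of 7.22 (25% of the median). Each fit left out its dimmest probe sets, those whose mean fell in the lowest 25%. A probe set counted as above background where its deposited intensity was larger than the depth below 0 that 5% of that array's values reach. If a gene was not above it on any array of the dimmer group, the fold is a lower bound against the lowest level above background on those arrays. Such a bound has no interval, and the adjusted p printed with it is that of the fitted log2 change. The array's annotation gave 1 symbol for 10833 probe sets, several for 396 and none for 1193. Tests used limma 3.58.1 under R 4.3.3 (empirical Bayes with a trend, two-sided), over 9 arrays for the 3 groups other than single S-shaped bodies and over 6 arrays for each comparison with single S-shaped bodies. The fit was tested on simulated data. All 12 arrays were used, and 0 pairs held identical values.

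The 10 genes, the 8 gene lists and the processing were chosen with earlier results of these data known. Genes were named by rule: all members, up to 2 called genes per direction, list and comparison with the largest change (a part of them is printed), and the 8 genes closest to the members' mean profile. Alternatives were pseudocounts equal to the median and to 10% of it, no normalization, scaling to the 75th percentile, no filter, no trend, all 12 arrays in 1 fit, averaging the probe sets of a gene, the replicate number as a block, and leaving out each array. The gene lists were counted on each scale as well, chosen after seeing the data.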

Additional observations from a re-analysis of the deposited data

How the results depend on the processing

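Of 54 changes (9 genes in 6 comparisons), 35 were called, and 19 of these 35 kept their sign and call under every alternative run. Over 869 alternative fits of single genes, 26 lost a call, 19 gained one and 25 changed sign. On the deposited scale, where arrays have no common level by construction, 7 of the 9 genes were called between renal vesicles and collecting duct (1 higher, 6 lower), 7 between single and pooled S-shaped bodies and 9 between single S-shaped bodies and collecting duct. Of all tested probe sets, 7268, 8345 and 8299 were called there, in the same order. The log2 changes that turned there were, in renal vesicles against collecting duct, Birc5 -1.16, Ccna2 -0.54, Cdc20 -0.40, Plk1 -0.43, Bub1 -0.65, Top2a -0.58, Lmnb1 -0.64 and E2f8 -0.61. In pooled S-shaped bodies against renal vesicles they were Ccna2 0.017, Plk1 0.47 and Bub1 0.16, in single against pooled S-shaped bodies Birc5 -0.17, Top2a -2.51 and Lmnb1 -2.19, and in single S-shaped bodies against collecting duct Cdc20 -2.29 and Plk1 -2.79. Scaling to the 75th percentile turned Cdc20 between pooled S-shaped bodies and renal vesicles (-0.098), and averaging the probe sets of a gene turned Plk1 between single S-shaped bodies and collecting duct (-0.42). For gene lists, an alternative chosen after seeing the data, a list turned where the side with more called genes changed on the deposited scale. The genes called on both scales need not be the same. Such lists in renal vesicles against collecting duct were other mitosis genes (22 called as deposited), anaphase-promoting complex partners (9) and lamina and envelope (6). Topoisomerases (3) and DNA replication (17) also turned there. In pooled S-shaped bodies set against renal vesicles they were other mitosis genes (16), anaphase-promoting complex partners (5), lamina and envelope (4) and E2F and pocket proteins (3). Topoisomerases (3), the inhibitor of apoptosis family (3) and D cyclins (5) turned there as well. In 1 fit of all 12 arrays, 1 gene was called between single and pooled S-shaped bodies and 7 between single S-shaped bodies and collecting duct. Of all tested probe sets, 424 and 3633 were called in that fit, in the same order.

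Leaving out 1 array, the count of called genes was 8 to 8 for renal vesicles against collecting duct, 6 to 7 for pooled S-shaped bodies against collecting duct, 7 to 8 for pooled S-shaped bodies set against renal vesicles, 0 to 0 for single against pooled S-shaped bodies, 2 to 5 for single S-shaped bodies set against collecting duct, and 6 to 8 against renal vesicles. Changes that were not called turned sign there: Bub1 -0.15 to 0.067 and Ccna2 -0.19 to 0.057 against collecting duct (pooled and single S-shaped bodies in that order), and between single and pooled S-shaped bodies Ccna2 -0.14 to 0.11, Top2a -0.044 to 0.30 and Lmnb1 -0.22 to 0.30.

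Correlations of deviations were -0.089 to 0.049 over 11 same-numbered replicate pairs (others -0.146 to 0.12), too few arrays to judge pairing. With the replicate block, fitted for the 4 comparisons whose groups share at least 2 numbers, 5 genes were called between single S-shaped bodies and renal vesicles, with Birc5 (adjusted p = 0.145), Ccna2 (0.0729) and Plk1 (0.207) lost. Lmnb1 was lost between renal vesicles and collecting duct (0.0641), and Plk1 between pooled S-shaped bodies and renal vesicles (log2 change -0.40, adjusted p = 0.121). The block gave 1383 called probe sets in renal vesicles against collecting duct, beside 2225 without it. For single S-shaped bodies against pooled ones and against collecting duct no block could be fitted, since these groups share only 1 number. Over all probe sets, the deposited scale gave 7268 calls for renal vesicles against collecting duct (2225 otherwise), 5432 for pooled S-shaped bodies set against renal vesicles (3423), 8345 for single against pooled S-shaped bodies (37), 8299 for single S-shaped bodies set against collecting duct (3152) and 4349 against renal vesicles (2525). Between single and pooled S-shaped bodies, scaling to the 75th percentile gave 146, all 12 arrays 424, and leaving out 1 array 1 to 72. Between single S-shaped bodies and renal vesicles the block gave 1113, and leaving out renal vesicle replicate 2 or 4 gave 1539 or 1583. Where no other value is given, the cause was not tested. The low signal of Birc5 and Ube2s over background limits their folds in S-shaped bodies to bounds.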
